A study of Mus spretus with 19 samples.

Results

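The livers of Algerian mice (Mus spretus) from 3 stretches of the Domingo Rubio stream were set against those of mice from 2 other places in southwest Spain, to ask which genes stand apart in every stream pool. The stream pools are DR1 from the lower course, DR4 from the medium course and DR6 from the upper course. The other pools are PS, from the phosphogypsum stacks, which are dumps of waste from fertilizer production, and SOL, from the Santa Olalla lagoon. Per the labels, the mice of DR1, DR4, DR6 and PS came from polluted sites and those of SOL from an unpolluted one, so the split described here follows the stream and not the label of pollution. Every pool joined liver RNA of 9 wild-caught males, with no treatment beyond the place of capture. The labels used here state no age. RNA of each pool was labelled 4 times for as many one-colour mouse arrays made by Agilent, of which 3 are used here for DR6, so the stream pools have 11 of the 19 arrays and PS and SOL have 8.

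A gene was counted as separating when each of the 6 differences between a stream pool and PS or SOL had the same sign, was at least 2-fold (1 on the log2 scale) and passed limma's test at an adjusted p under 0.05. Of 16346 genes and transcripts tested, 78 separated, 66 of them higher in the stream pools and 12 lower. That is 0.404% and 0.0734% of all genes tested. The arrays of a pool are technical repeats, so this test sets a difference against technical variation alone; variation from mouse to mouse is not part of it. Each pool also had its own slide and its own scan, so the site and the slide cannot be told apart. In bulk liver, fewer cells of a type and less RNA per cell cannot be told apart either. Levels below are log2 signals relative to the array's 75th percentile, and changes are differences of such levels.

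In liver, the immediate early genes Fos, Myc and the Nr4a nuclear receptors are transcribed within minutes of a stimulus and decay soon after it. Betacellulin and amphiregulin are ligands that bind the EGF receptor of hepatocytes and drive growth and survival signals through MAP kinases. Glucocorticoid hormone, which rises with stress, fasting and the time of day, induces the kinase gene Sgk, the phosphatase gene Dusp1 and the metallothioneins.

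All 15 hepatocyte markers tested were above background on every array, among them Apoa1 at levels from 7.88 to 8.21 and Ahsg from 8.18 to 8.98 across the 5 pools. Between 52.0% and 61.5% of gene spots were well above background on an array, and the number of arrays limits the precision. Arrays of 1 pool correlated across genes at r = 0.98 to 0.997, arrays of different stream pools at 0.968 to 0.98, and stream arrays with PS or SOL arrays at 0.952 to 0.979. PS and SOL arrays correlated at 0.967 to 0.984, and genes are not independent replicates. The probes were designed on Mus musculus, and whether sequence differences between the species lower single signals was not tested.

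Most genes did not keep the stream apart from the other pools. Without any fold limit or test, the 3 stream means lay above both other means in 2309 genes (14.1%) and below both in 2492 (15.2%), together 29.4%. The arrays themselves did not overlap between the sets in 517 genes (3.16%) that were higher and 579 (3.54%) that were lower in the stream pools. At the adjusted p alone, 549 genes (3.36%) were higher and 568 (3.47%) lower in all 6 pairs, so the 2-fold limit, rather than the test, left more higher than lower genes. Over all genes the median change was −0.01, with quartiles of −0.23 and 0.22.

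**Figure D1:**
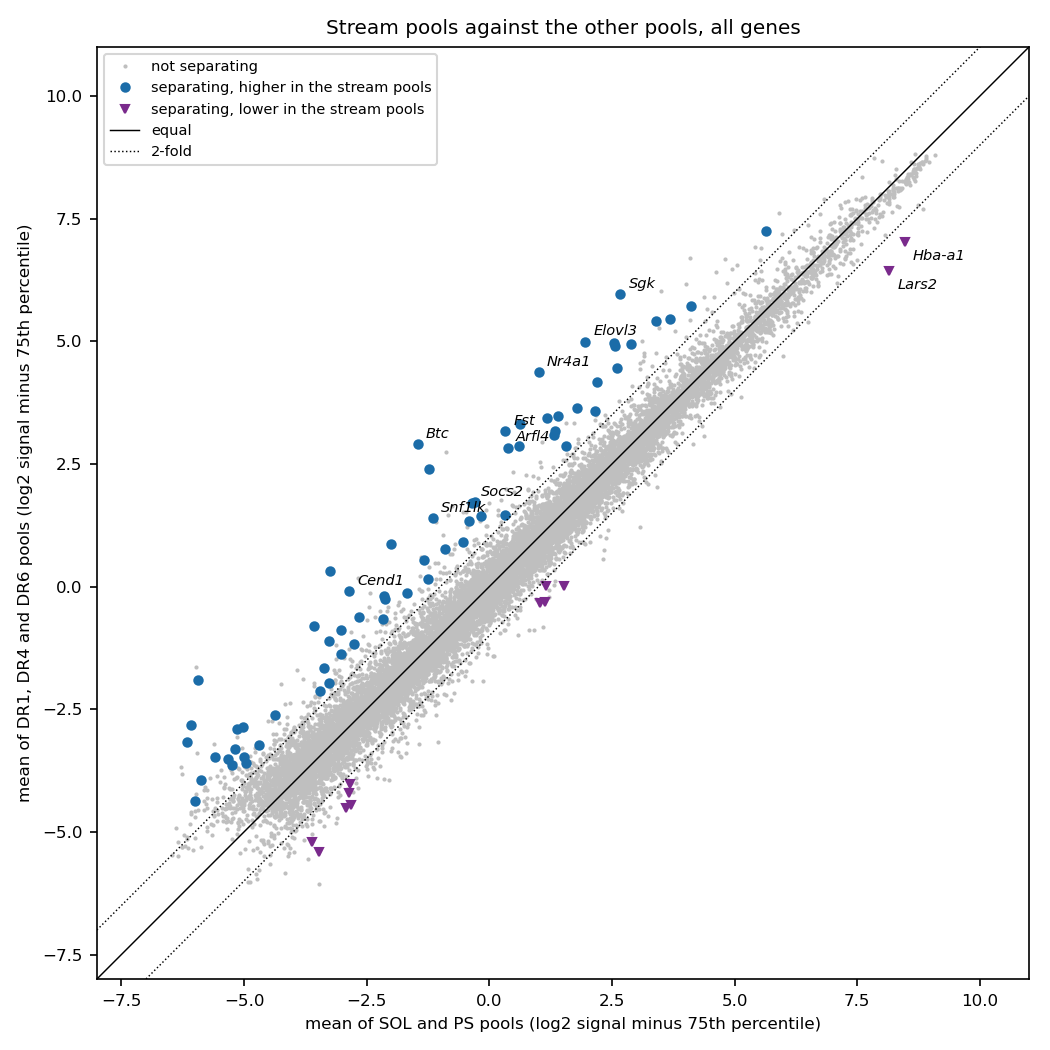
Mean of the 3 stream pools (vertical) against the mean of PS and SOL (horizontal) for all 16346 genes, each as the log2 signal minus the array's 75th percentile. Blue circles are the 66 separating genes that were higher in the stream pools and purple triangles the 12 that were lower, and the dotted lines mark a 2-fold difference.

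With the pool as the unit, which leaves 3 values against 2, limma called no gene at an adjusted p under 0.05. At an unadjusted p under 0.05 it had 960 genes higher (5.87%) and 731 lower (4.47%) in the stream pools. The smallest adjusted p was 0.0582, shared by Sgk, Elovl3, Nr4a1 and Arfl4. An exact permutation test of 3 pools against 2 cannot give a p below 0.1 for any single gene. Every separating gene had an unadjusted p of at most 0.0104 in the pool fit, but the same pools chose the genes, so that is a description of them.

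The 4 genes below led the higher ones and are shown with the first 30 of the 60 bases of their array probes, so that a reader can see what was measured. Positions are those of the whole probe in the mm8 mouse build, as the array's design file gives them, and where the probe lies within its gene was not analysed here.
Btc, chr5:92433122-92433181, minus strand: ggatccttgtacattttactttacaagaga
Sgk, chr10:21689000-21689059, plus strand: cagttgtcagtcaaagccgttggtgttttc
Nr4a1, chr15:101102674-101102733, plus strand: ctcttccgctctccttccatgtgtacataa
Elovl3, chr19:46188583-46188642, plus strand: ggcctggtaggcgcttaataaatgtctttt

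Btc, the gene of the growth factor betacellulin, had the widest separation among genes with a symbol. Its level was 1.76 at DR1, 3.83 at DR4 and 3.13 at DR6, against −1.34 at PS and −1.58 at SOL. All stream arrays lay above all others, the nearest stream pool being 8.55-fold above the nearer of PS and SOL (adjusted p = 9.24e-13, limma on arrays). The mean of the stream pools exceeded that of PS and SOL by 4.36 ± 0.57 (SE of the pool fit, 3 against 2 pools; adjusted p = 0.160, limma on pools).

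Areg, the gene of amphiregulin, another ligand of the same receptor, was at −2.97 at DR1, −2.03 at DR4 and −4.53 at DR6, against −6.24 at PS and −6.08 at SOL. It was well above background on all 8 arrays of DR1 and DR4 and on none of DR6, PS or SOL. Its differences at DR6 therefore set undetected levels against undetected levels, and no fold is given. With normexp background correction its smallest difference was 0.11 and the call was lost.

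The receptor gene itself, Egfr, stood at 5.36 at DR1, 6.2 at DR4 and 5.60 at DR6, against 4.26 at PS and 3.97 at SOL. The difference of means was 1.61 ± 0.29, and the smallest of the 6 was 1.10, between DR1 and PS (adjusted p = 9.98e-12, limma on arrays). The array holds 6 probes of Egfr above background, from 16655638 to 16817689 on chromosome 11. Their changes ran from 0.86 to 1.78, and 5 of the 6 kept the stream pools above both others. The probe that did not is the first along the chromosome, at 16655638 to 16655697. The mean of all 6 probes lowered the smallest difference to 0.91, and normexp to 0.99, both under the 2-fold limit.

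Of 15 genes of the EGF receptor list, these 3 met the criteria, Areg with undetected levels at DR6, and 2 more were ordered the same way, Nrg1 at a change of 0.91 and the receptor's feedback inhibitor Errfi1 at 0.22. Adam17, the protease that sheds ligands from the cell surface, was lower in all stream pools, by 0.32 on the log2 scale of means. Genes of the other ligands and receptors, such as Tgfa at −0.07, Hbegf at 0.21, Egf at 0.14, Erbb2 at −0.12 and Erbb3 at 0.26, had means that overlapped between the sets. In all, 33.3% of the list were ordered higher and 6.67% lower, against 14.1% and 15.2% of all genes. The median change over the list was 0.22, and 0.08 under normexp.

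Immediate early genes were the list with the most separating members, 8 of 28 tested, all higher in the stream pools. A further 10 members were ordered the same way without passing, and none was ordered lower, against 14.1% and 15.2% of all genes. The median change over the list was 0.85. Called members in single pairs numbered 10 for DR1 and 14 for DR4 and 16 for DR6 against PS, and 9, 14 and 15 against SOL, with 1 member lower between DR4 and SOL. Of all genes tested, 3.72%, 4.64% and 4.79% were called higher at DR1, DR4 and DR6 against PS, and 3.53%, 5.43% and 4.67% against SOL, while 5.1% were called lower at DR4 against SOL.

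Nr4a1, an orphan nuclear receptor induced by hormones and cAMP, had the largest smallest difference of the list. Its level was 4.54 at DR1, 3.99 at DR4 and 4.59 at DR6, against 0.70 at PS and 1.31 at SOL. The nearest stream and other pool, DR4 and SOL, were 2.68 apart (adjusted p = 2.69e-15, limma on arrays). Its relative Nr4a2 was at 0.33, 1.33 and 0.96 at DR1, DR4 and DR6, against −2.47 at PS and −1.54 at SOL, so every stream pool lay above both, and PS lay below SOL.

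Fos, part of the AP-1 transcription factor, had levels of −0.22 at DR1, −0.90 at DR4 and −0.75 at DR6, against −2.55 at PS and −2.76 at SOL. Its smallest difference was 1.66, and under normexp 0.69, below the limit. The growth regulator Myc was at 1.24 at DR1, 2.06 at DR4 and 1.89 at DR6, against −0.16 at PS and −0.40 at SOL. All 3 probes of Myc kept this order, with changes of means from 1.45 to 2.01. Klf4, a zinc finger factor, differed least among the separating members, by 1.12 ± 0.17, with stream pools that hardly differed (1.52 at DR1, 1.40 at DR4 and 1.44 at DR6, against 0.37 at PS and 0.28 at SOL). Its smallest difference of 1.03 fell to 0.90 under median scaling and 0.79 under normexp, and the call was lost.

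Dusp1, the phosphatase that switches MAP kinases off, was at 2.82 at DR1, 3.60 at DR4 and 3.11 at DR6, against 1.12 at PS and 1.58 at SOL. Btg2, an antiproliferative gene that also stands on the p53 list, was highest in the upper course, at 4.77 at DR6, with 2.52 at DR1 and 3.00 at DR4, against 1.24 at PS and 1.12 at SOL. Atf3, a stress-induced repressor, had a similar peak without separating, at 3.23 at DR6, 0.42 at DR1 and 0.72 at DR4, against −1.16 at PS and −0.52 at SOL.

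The list was not uniform. Egr1, a classical serum-response gene, was at 2.86 at DR1, 1.27 at DR4 and 1.34 at DR6, against 1.96 at PS and 1.71 at SOL, and its means overlapped between the sets (change −0.01). Egr2 at 0.01, Ier5 at −0.22, Klf2 at −0.28 and Klf10 at −0.17 did not keep the pools apart either. Jun overlapped because DR1 at −0.46 lay below SOL at 0.03, while DR6 stood at 1.48 and DR4 at 0.25.

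**Figure D2:**
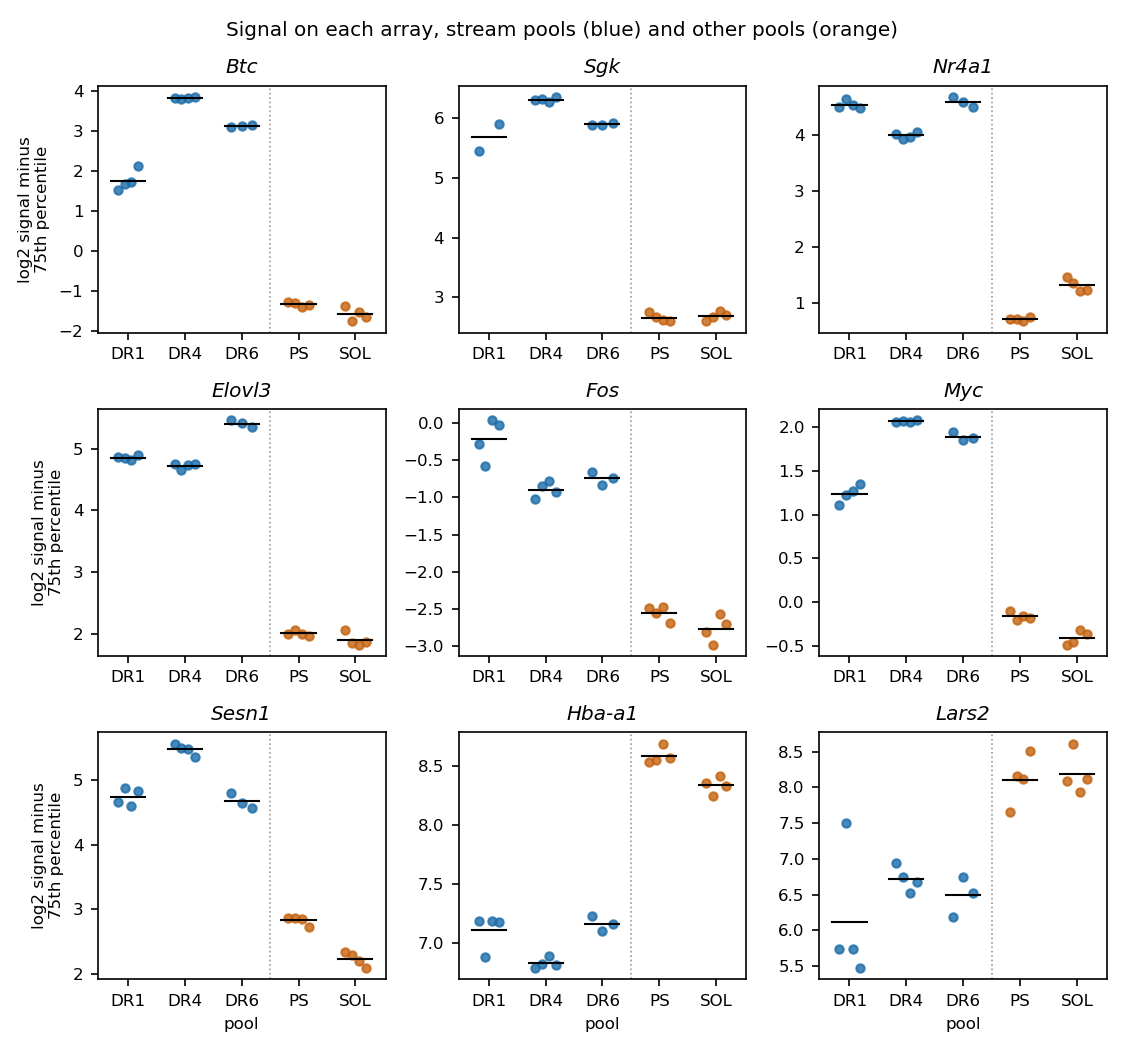
Signal of 9 separating genes on each array (points) with the mean of the pool (line), as log2 signal minus the array's 75th percentile; stream pools DR1, DR4 and DR6 are left of the dotted line, PS and SOL right of it. In Btc, Sgk, Nr4a1, Elovl3, Fos, Myc and Sesn1 every stream array lies above every other array, and in Hba-a1 and Lars2 every stream array lies below, with 1 DR1 array of Lars2 at 7.50 close to the lowest PS array; Sgk was measured on 2 of the 4 DR1 arrays.

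Genes of growth arrest and DNA damage, many of them targets of p53, formed the next group, with 5 of 31 separating, all higher. Btg2 and Gadd45b are counted on the immediate early list as well. Of all genes tested, 0.404% separated higher. Including the 5, 13 members were ordered higher (41.9%) and 5 lower (16.1%), and the median change was 0.29. Over all genes these shares were 14.1% and 15.2%, so the share ordered lower was close to that of all genes.

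Sesn1, whose product restrains mTORC1 and oxidative damage, was at 4.74 at DR1, 5.47 at DR4 and 4.67 at DR6, against 2.83 at PS and 2.24 at SOL. Its 3 probes gave changes of 2.35 to 2.44. Trp53inp1, a stress gene that acts with p53 and in autophagy, was at 4.56 at DR1, 5.22 at DR4 and 4.95 at DR6, against 2.75 at PS and 2.38 at SOL. Its smallest difference was 1.81 and its change of means 2.35 ± 0.26 (adjusted p = 0.115, limma on pools).

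Gadd45b, a sensor of stress and a partner of MAP kinase kinases, had levels of 5.11 at DR1, 5.52 at DR4 and 5.63 at DR6, against 3.43 at PS and 3.36 at SOL. Plk3, a polo-like kinase, was at 4.21 at DR1, 4.96 at DR4 and 5.64 at DR6, against 2.83 at PS and 2.93 at SOL. Both were lowest at DR1 and highest at DR6 among the stream pools.

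Several textbook targets of p53 did not separate. Cdkn1a, the cell cycle inhibitor p21, was ordered higher at a change of 0.88, the ubiquitin ligase gene Mdm2 at 0.29 and the death genes Bbc3 at 1.09 and Pmaip1 at 1.02. Ccng1 at 0.22, Bax at −0.29 and Zmat3 at −0.18 overlapped, and the members ordered lower were Fas at −0.75, Tap1 at −0.81, Ephx1 at −0.51, Ddb2 at −0.50 and Perp at −0.46.

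Glucocorticoid-responsive genes had the highest share of ordered members of all 46 lists: 14 of 20 tested lay higher in every stream pool and none lower. The shares of all genes were 14.1% higher and 15.2% lower. The median change over the list was 0.62. The 3 that separated were Sgk, Gadd45b and Dusp1, and Sgk is the one of them that stands on no other list used here.
Sgk, a kinase that regulates ion transport and survival, was at 5.69 at DR1, 6.31 at DR4 and 5.90 at DR6, against 2.65 at PS and 2.68 at SOL. DR1 rests on 2 arrays, since the spots of the other 2 were outliers and were set missing. Its PS and SOL means nearly coincided, and the nearest stream pool stood 3.00 above them (adjusted p = 6.62e-12, limma on arrays). The change of means was 3.30 ± 0.24 (adjusted p = 0.0582, limma on pools).

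The leucine zipper gene Tsc22d3, also known as Gilz, was ordered higher at a change of 0.87, the transcription factors Klf9 at 0.71, Cebpd at 0.65 and Cebpb at 0.42, and the tyrosine-degrading enzyme Tat at 0.59. Ddit4, an inhibitor of mTORC1 induced by glucocorticoid and by stress, was just outside the limit. It stood at 7.27 at DR1, 7.91 at DR4 and 7.70 at DR6, against 6.27 at PS and 5.55 at SOL, with a smallest difference that rounds to 1.00. The receptor gene Nr3c1 at 0.10, the cochaperone Fkbp5 at −0.22 and the clock gene Per1 at 0.43 overlapped between the sets.

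Metallothionein Mt1, on this list, the metal list and the acute phase list, was ordered higher with levels of 6.94 at DR1, 7.25 at DR4 and 6.58 at DR6, against 6.09 at PS and 4.74 at SOL. Its distance from PS was as small as 0.48, and PS itself lay above SOL, so Mt1 did not separate the stream. The zinc exporter Slc30a1, which zinc induces together with Mt1, came nearer, with 3.29 at DR1, 3.90 at DR4 and 3.03 at DR6, against 2.26 at PS and 2.04 at SOL. Its smallest difference was 0.77. Over the 26 metal genes 5 were ordered higher and 3 lower, with a median of −0.01 (−0.08 under median scaling). These shares, 19.2% and 11.5%, stand beside 14.1% and 15.2% of all genes.

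Regulators of insulin signalling, FOXO and fasting had 12 of 24 members ordered higher and none lower, against 14.1% and 15.2% of all genes. Their median change was 0.52. The separating members were Sesn1, Egfr and Snf1lk. Snf1lk, a salt-inducible kinase that restrains glucose production, differed widely along the stream, at 0.01 at DR1, 1.84 at DR4 and 2.33 at DR6, against −1.0 at PS and −1.30 at SOL. Its smallest difference, 1.01, fell to 0.99 under quantile scaling, to 0.94 under median scaling and to 0.87 without DR1 replicate 2, each under the limit. Ppargc1a, the coactivator of fasting metabolism, was ordered higher at 0.96, Trib1 at 0.72, Klf15 at 0.55, Irs1 at 0.43 and Foxo1 at 0.26, whereas Igfbp1 at −0.31, Trib3 at −0.02 and Sesn3 at −0.18 overlapped.

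Tiparp, a target and feedback inhibitor of the aryl hydrocarbon receptor, was the separating member of the 6 AHR genes tested. Its level was 2.55 at DR1, 2.81 at DR4 and 3.23 at DR6, against 0.61 at PS and 0.62 at SOL, with a smallest difference of 1.93 (adjusted p = 4.19e-10, limma on arrays). The receptor gene Ahr was at 2.33 at DR1, 3.26 at DR4 and 2.53 at DR6, against 1.54 at PS and 1.63 at SOL. Cyp1a1 was ordered higher at a change of 1.12 and the partner gene Arnt at 0.49. Cyp1a2, the AHR target most used in liver, did not follow: 5.33 at DR1, 4.08 at DR4 and 3.74 at DR6, against 4.54 at PS and 3.83 at SOL.

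Elovl3, an elongase of very long chain fatty acids that is higher in male than in female mouse liver and cycles over the day, was the second gene of the pool ranking. Its level was 4.85 at DR1, 4.73 at DR4 and 5.41 at DR6, against 2.01 at PS and 1.90 at SOL. The smallest difference was 2.72 and the change of means 3.04 ± 0.25 (adjusted p = 0.0582, limma on pools). It was the separating member of 21 male-biased genes, of which 4 were ordered higher and 2 lower. Cyp7b1, a male-biased steroid hydroxylase, was ordered higher at 1.22, but its lowest stream level, at DR6, rests on 1 of 3 arrays. Mup5 at 1.53 and Cyp4a12 at 1.05 overlapped, since DR6 lay below PS in both.

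Socs2, which restrains growth hormone signalling, was the separating member of the growth hormone list of 21 genes. It was at 1.44 at DR1, 2.62 at DR4 and 1.08 at DR6, against −0.10 at PS and −0.59 at SOL, and its smallest difference of 1.18 became 0.83 under normexp. Nfil3, a repressor within the circadian output, was called on thin evidence: 3.20 at DR1, 3.98 at DR4 and 3.77 at DR6, against 1.57 at PS and 2.0 at SOL. Its SOL mean holds 1 array far below the rest, and without SOL replicate 1 the smallest difference was 0.49 instead of 1.20. Of 22 clock genes 3 were ordered higher and none lower, with a median of 0.08 (0.01 under median scaling). The share ordered higher, 13.6%, was close to the 14.1% of all genes, of which 15.2% were ordered lower. The stream pools differed here. At DR4, 8 were called lower and 5 higher against PS, and 5 and 4 against SOL. At DR6, 5 were called higher against PS and 7 against SOL, and none lower. At DR1, 4 were called higher and 2 lower against PS, and 3 and 1 against SOL. Of all genes tested, 4.32% and 5.1% were called lower at DR4 against PS and SOL, and 4.64% and 5.43% higher. At DR6 4.79% and 4.67% of all genes were called higher, and 2.51% and 2.28% lower. At DR1 3.72% and 3.53% were called higher, and 2.64% and 2.55% lower.

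Other separating genes served transport, amino acid use and signalling. The small GTPase gene Arfl4 was at 2.97 at DR1, 2.63 at DR4 and 2.89 at DR6, against 0.53 at PS and 0.22 at SOL (change 2.46 ± 0.21, adjusted p = 0.0582, limma on pools). Slc38a2, a carrier of neutral amino acids, was at 5.25 at DR1, 5.74 at DR4 and 5.36 at DR6, against 3.46 at PS and 3.90 at SOL. Its 3 probes were ordered alike, but their mean lowered the smallest difference to 0.64.
Got1, the cytosolic aspartate aminotransferase, was at 6.81 at DR1, 7.59 at DR4 and 7.34 at DR6, against 5.76 at PS and 5.53 at SOL. Its smallest difference, 1.05, was 0.97 under median scaling and 0.84 under normexp, below the limit. Got1 alone separated among 40 genes of the urea cycle and amino acid breakdown.

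Fst, whose product follistatin binds activin, and Cend1, a gene of cell cycle exit in neurons, were far apart along the stream. Fst was at 1.76 at DR1, 4.11 at DR4 and 3.66 at DR6, against 0.41 at PS and 0.23 at SOL. Cend1 was at −1.33 at DR1, 0.97 at DR4 and 0.06 at DR6, against −2.90 at PS and −2.83 at SOL, and its smallest difference of 1.5 became 0.61 under normexp. The gut hormone gene Pyy, an islet and neuroendocrine marker, was at 1.18 at DR1, 0.69 at DR4 and 0.84 at DR6, against −0.64 at PS and −0.45 at SOL. The mean of its probes gave a smallest difference of 0.25 and normexp 0.76, and the call was lost in both.

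**Figure D3:**
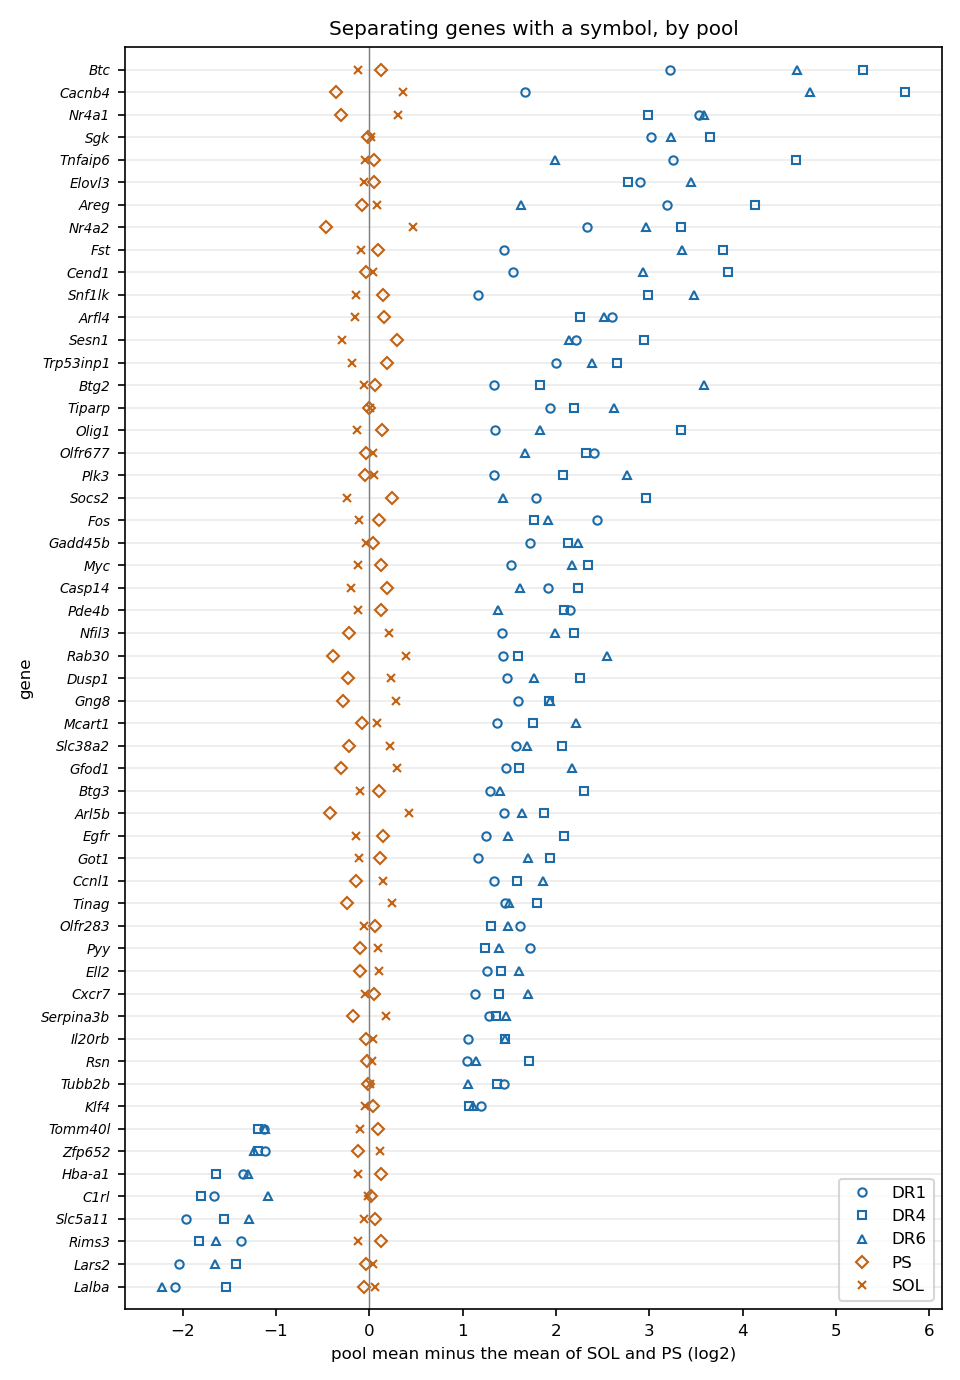
Mean of each pool minus the mean of PS and SOL (log2, horizontal) for the separating genes with a symbol (vertical), 47 higher and 8 lower; blue open symbols are the stream pools and orange symbols PS and SOL. The stream pools spread widely in genes such as Btc, Cacnb4, Fst and Snf1lk and narrowly in Klf4 and Tomm40l, while PS and SOL differ 2-fold in 2 of the 66 higher genes and none of the 12 lower ones.

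Among the separating genes that were higher, the medium course stood highest most often. Of the 66 higher genes 34 peaked at DR4, 21 at DR6 and 11 at DR1, and 41 were lowest at DR1. Their median distance from the mean of PS and SOL was 1.58 at DR1, 2.08 at DR4 and 1.92 at DR6. In 21 of them the stream pools differed at least 2-fold among themselves, and in 2 of them PS and SOL did. PS was the nearer of PS and SOL to the stream in 34 of the 66. How often each stream pool was highest over all genes was not computed, and the same pools chose these 66. Of all genes tested, 3.72%, 4.64% and 4.79% were called higher at DR1, DR4 and DR6 against PS. Against SOL these shares were 3.53%, 5.43% and 4.67%, so DR1 was lowest there as well.

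Further genes, outside the naming rule, are mentioned here after their values were seen. Cacnb4, a subunit of voltage-gated calcium channels, was at −4.28 at DR1, −0.21 at DR4 and −1.23 at DR6, against −6.30 at PS and −5.58 at SOL. No array of PS or SOL was above background for it, so the mean of the stream pools was at least 5.09-fold higher. In that bound PS and SOL take, per array, the lowest level of any probe that passed the background flag. DR4 and DR6 lay far above DR1 in that mean, so the bound does not hold for DR1 alone. Tnfaip6, a secreted protein induced by TNF, was also below background at PS and SOL, and above it on 1 of 3 arrays at DR6. Rab30, a GTPase of the Golgi, was above background on every array, at 4.03 at DR1, 4.2 at DR4 and 5.15 at DR6, against 2.21 at PS and 3.00 at SOL. Of the 66 higher genes, 47 were above background on all 19 arrays, 11 on no array of PS or SOL, and 14 on no array of at least 1 of these pools. The differences of those 14 run to undetected levels, so their sizes are not measured.

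The 12 genes that were lower in all stream pools included the alpha globin Hba-a1. Of the 12, 6 were above background on no array of at least 1 stream pool, so the sizes of their differences are not measured. The changes were smaller than those of the higher genes, with a median smallest difference of −1.16 against 1.28, and no lower gene differed 2-fold among the stream pools. Probes are shown for Lars2 (first 30 bases) and in full for both Hba-a1 probes and for a transcript that the files describe as similar to the alpha subunit of hemoglobin, because these resemble each other. The capitals mark the run of 11 bases that all 3 globin probes share, and the lower 2 share a longer run of 18. Positions are mm8, and a span over 60 bases means that the probe's matches are interrupted in the genome.
Lars2, chr9:123310696-123310755, plus strand: acgtcgctttttgatccttcgatgtcggct
Hba-a1 first probe, chr11:32196744-32196803, plus strand: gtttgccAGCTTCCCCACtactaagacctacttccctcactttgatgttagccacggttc
Hba-a1 second probe, chr11:32183775-32183956, plus strand: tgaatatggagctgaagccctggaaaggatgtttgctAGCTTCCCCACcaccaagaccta
ENSMUST00000025024, chr17:26014407-26014571, minus strand: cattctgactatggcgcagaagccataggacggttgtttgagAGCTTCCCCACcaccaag

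Hba-a1, the alpha chain of adult hemoglobin, was at 7.11 at DR1, 6.82 at DR4 and 7.16 at DR6, against 8.59 at PS and 8.34 at SOL. No stream array reached the lowest array of PS or SOL. Its 2 probes gave changes of −1.43 and −1.42, and under normexp the smallest difference was −0.93 instead of −1.18, under the limit. The alpha-globin-like transcript ENSMUST00000025024, named here after its value was seen, was at −0.16 at DR1, −0.65 at DR4 and −0.14 at DR6, against 1.12 at PS and 1.17 at SOL. Since their probes share sequence, these signals may not be separate measurements.

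Erythroid markers as a group lay lower in the stream, with 6 of 9 tested members below both other pools and none above. The shares of all genes were 15.2% and 14.1%. The median change was −1.24, which was −0.49 under normexp. Above background on all 19 arrays were 5 of the 9, while 1 was so on no stream array and 1 on no array of PS or SOL. For members not detected in a set, the sizes of the changes are not measured. Hbb-b1, the beta globin, was at 7.99 at DR1, 7.57 at DR4 and 7.77 at DR6, against 8.70 at PS and 8.76 at SOL. Alas2, the first enzyme of heme synthesis in red cells, changed by −1.40, the globin chaperone gene Eraf by −1.68, the anion exchanger gene Slc4a1 by −1.24 and the spectrin gene Spna1 by −1.38. The summed linear level of the 9 markers was 400.1 at DR1, 308 at DR4 and 367 at DR6, against 818 at PS and 769 at SOL. Hba-a1 and Hbb-b1 make up nearly all of this sum, so it restates those globin genes rather than the group. The part of blood in the other differences was not tested.

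Lars2, named in the files as the mitochondrial leucyl-tRNA synthetase, was at 6.11 at DR1, 6.72 at DR4 and 6.49 at DR6, against 8.11 at PS and 8.19 at SOL. Whether the probe measures that transcript was not checked, so the value stands for the probe alone. Its smallest difference was −1.38, with an SD of 0.93 over the 4 DR1 arrays. C1rl, a complement-related protease, was at −0.15 at DR1, −0.28 at DR4 and 0.43 at DR6, against 1.54 at PS and 1.51 at SOL. Tomm40l, named for its likeness to a subunit of the mitochondrial import pore, was at 0.04 at DR1, −0.03 at DR4 and 0.04 at DR6, against 1.26 at PS and 1.07 at SOL. Both calls were near the limit: without SOL replicate 1 the smallest difference of C1rl no longer reached the limit, and without DR6 replicate 1 that of Tomm40l was −0.92.

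Slc5a11, a carrier of inositol and glucose, Rims3, of vesicle release, and the zinc finger gene Zfp652 were dim in the stream. Slc5a11 was above background on 2 of 11 stream arrays, Rims3 on 2 and Zfp652 on 6, against all 8 arrays of PS and SOL for each. No array was above background at DR1 for Slc5a11, at DR4 for Rims3 or at DR6 for Zfp652, so the sizes below run to undetected levels. Their smallest differences of −1.23, −1.25 and −1.01 became −0.26, −0.22 and −0.24 under normexp.

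Interferon response genes had no separating member, yet 15 of 37 lay below both PS and SOL in every stream pool and none above. Their median change was −0.41 (−0.30 under normexp). The share ordered lower was 40.5%, against 15.2% of all genes. Members called lower numbered 5, 6 and 10 at DR1, DR4 and DR6 against PS, and 1, 1 and 6 against SOL. None was called higher against PS, but 1 at DR1 and 4 at DR4 were called higher than SOL. Of all genes tested, 2.64%, 4.32% and 2.51% were called lower against PS, and 2.55%, 5.1% and 2.28% against SOL. At DR1 and DR4, 3.53% and 5.43% of all genes were called higher than SOL. Mx2, an antiviral GTPase, was lowest in the middle and upper course, at −1.07 at DR1, −2.26 at DR4 and −2.42 at DR6, against 0.01 at PS and −0.27 at SOL. The regulator Irf7 was at −1.49 at DR1, −0.59 at DR4 and −0.58 at DR6, against 0.92 at PS and −0.29 at SOL. Classical induced genes did not follow this order: Rsad2 at 0.51, Ifit1 at 0.43, Isg15 at −0.21 and Usp18 at −0.11 had means that overlapped between the sets. The summed linear level of the list was 313 at DR1, 205 at DR4 and 206 at DR6. It was 342 at PS and 257 at SOL, so DR1 lay above SOL.

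Other members ordered lower were guanylate-binding and immunity-related GTPases and their regulators, with changes of −0.72 for Igtp, −0.77 for Gbp2, −0.70 for Iigp2 and −0.65 for Irf1. Macrophage and MHC class II markers were lower too, 7 of 18 with none ordered higher, against 15.2% and 14.1% of all genes. Their median change was −0.31. The Kupffer cell lectin Clec4f was at 1.83 at DR1, 0.95 at DR4 and 1.62 at DR6, against 2.34 at PS and 2.38 at SOL, and the scavenger receptor gene Marco changed by −1.28. H2-Aa, an MHC class II chain, changed by −0.92 while its partner H2-Ab1 at −0.13 and the invariant chain Cd74 at 0.05 overlapped. Cd163, another scavenger receptor, had a change of 1.10 with overlapping means, being at −0.70 at PS and 1.39 at SOL. The summed linear level of the macrophage list was 253 at DR1, 182 at DR4 and 161 at DR6, against 256 at PS and 272 at SOL, so DR1 was close to PS.

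Targets of PPARα and genes of fatty acid oxidation had 14 of 44 members ordered lower and 2 higher, against 15.2% and 14.1% of all genes. Their median change was −0.48, and no member separated. The fasting hormone Fgf21 led with a change of −1.76, at 1.35 at DR1, −0.80 at DR4 and 1.12 at DR6, against 2.23 at PS and 2.40 at SOL. A single SOL array was far below the rest and overlapped the stream. Acadm, of medium chain oxidation, was at 7.13 at DR1, 6.65 at DR4 and 7.16 at DR6, against 7.57 at PS and 7.60 at SOL. The aldehyde dehydrogenase gene Aldh3a2 had a change of −1.07 and the pantetheinase gene Vnn1 of −1.08.

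Called members of this list differed in number along the stream. At DR4 14 members were called lower against PS and 21 against SOL, with 1 called higher in each. At DR1 the called members numbered 2 lower against PS and 11 against SOL, with none higher, and at DR6 none against PS and 2 against SOL, with 2 and 1 called higher. Of all genes tested, 2.64%, 4.32% and 2.51% were called lower at DR1, DR4 and DR6 against PS, and 2.55%, 5.1% and 2.28% against SOL. The 2 members ordered higher were Ppargc1a at 0.96 and Cpt1a, the entry enzyme of mitochondrial oxidation, at 0.26.

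Cholesterol synthesis had the reverse pattern in its median, 0.70, with 5 of 25 members ordered higher and none lower, but the level at PS set it apart. The share ordered higher was 20%, against 14.1% of all genes, of which 15.2% were ordered lower. Called members numbered 15 at DR1, 17 at DR4 and 20 at DR6 higher than PS, and 0, 2 and 2 higher than SOL. Of all genes tested, 3.72%, 4.64% and 4.79% were called higher at DR1, DR4 and DR6 against PS. Against SOL these shares were 3.53%, 5.43% and 4.67%. Called lower than SOL were 2 members at DR1 and 1 at DR4, against 2.55% and 5.1% of all genes. Pmvk, the phosphomevalonate kinase, was at 4.9 at DR1, 5.42 at DR4 and 5.52 at DR6, against 2.56 at PS and 4.36 at SOL. Insig1, the sterol sensor, was at 1.14 at DR1, 1.25 at DR4 and 0.79 at DR6, against −0.39 at PS and 0.25 at SOL, and both genes had a smallest difference of 0.54. Idi1, by contrast, was at 6.08 at DR1, 5.76 at DR4 and 5.85 at DR6, against 2.83 at PS and 6.34 at SOL, so it told PS from the rest and not the stream from the other pools.

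**Figure D4:**
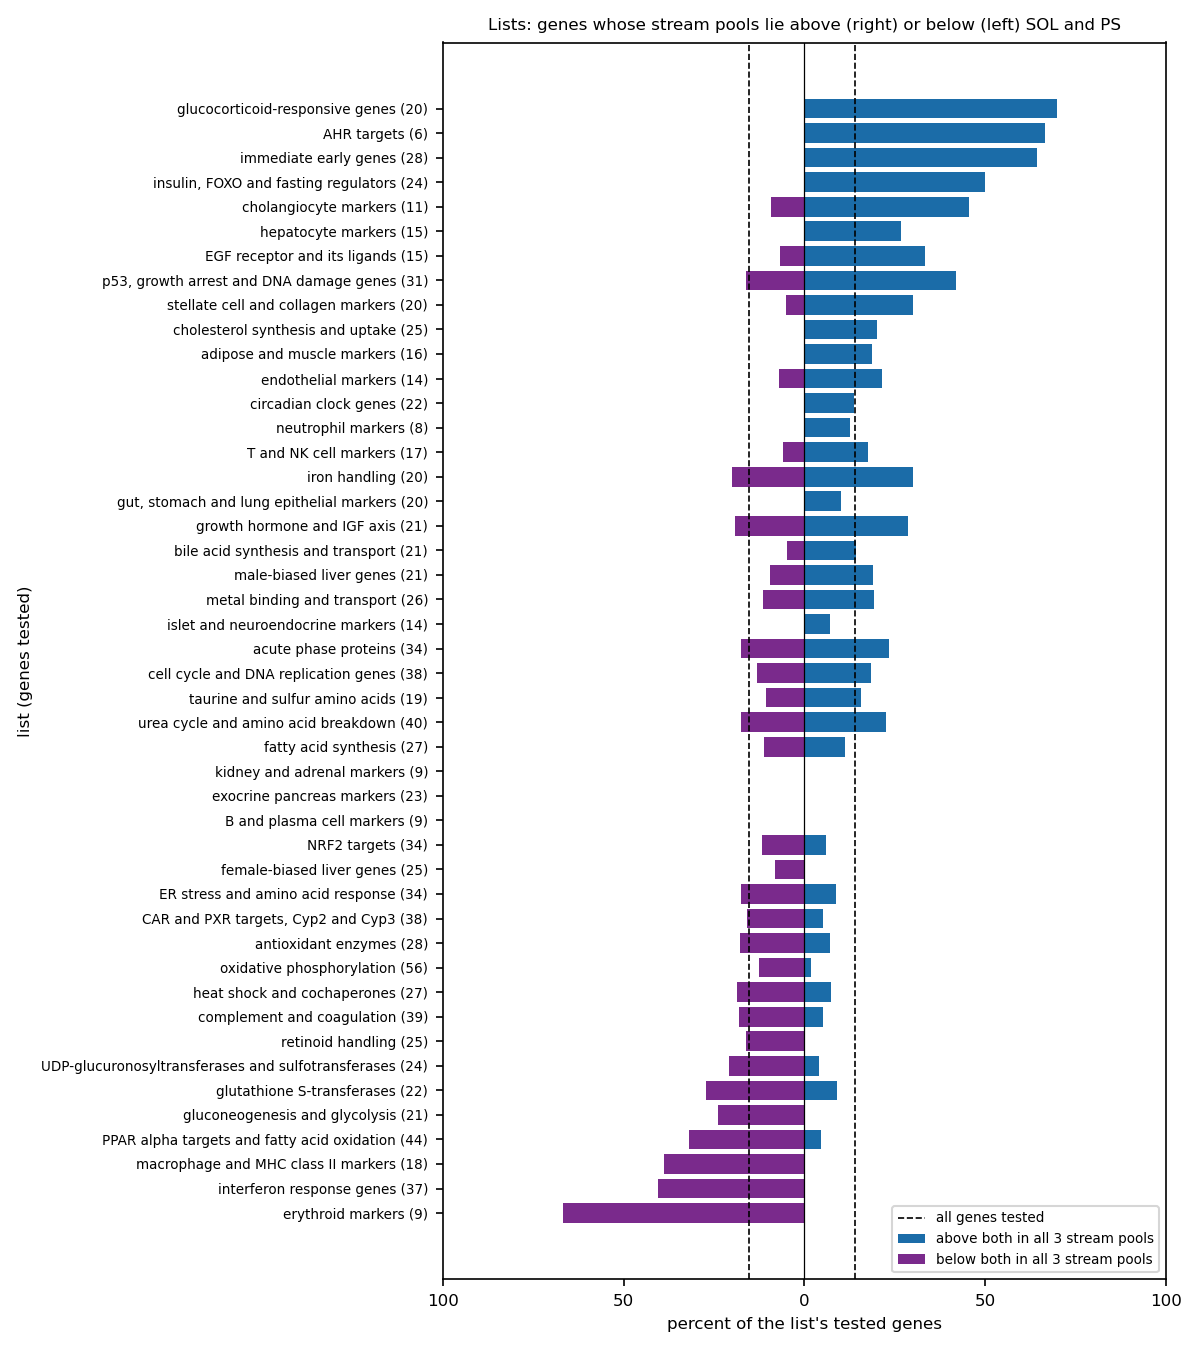
Percent of each list's tested genes whose 3 stream pools all lay above both PS and SOL (blue, right) or below both (purple, left), with the number tested in parentheses; dashed lines mark the same shares of all genes tested, 14.1% and 15.2%. Glucocorticoid-responsive, AHR and immediate early genes stand far to the right, and erythroid markers and interferon response genes far to the left.

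Defence and detoxification genes stayed near the shares of all genes, 14.1% ordered higher and 15.2% lower, or lay lower. NRF2 targets had 2 of 34 ordered higher and 4 lower (median −0.09). Of 28 antioxidant enzymes, 2 were ordered higher and 5 lower (median −0.13). Under normexp these medians were −0.03 and −0.06. Hmox1, heme oxygenase, was ordered higher by 0.28. Glutathione S-transferases had 6 of 22 lower and 2 higher, with a median of −0.22 (−0.13 under normexp), led by Gstt3, at 7.04 at DR1, 5.95 at DR4 and 6.96 at DR6, against 7.57 at PS and 7.42 at SOL. Targets of CAR and PXR had 6 of 38 lower and 2 higher, of which Gadd45b separated. Heat shock genes had 5 of 27 lower and 2 higher, with Fkbp4 at a change of −0.76 and Hsp90ab1 at −0.49.

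Markers of other organs, and of bile duct and stellate cells of the liver, were checked beside the separating genes. For comparison, 14.1% of all genes were ordered higher and 15.2% lower. Exocrine pancreas enzymes had no member of 23 ordered in either direction, since their summed linear level was 1731 at DR1, 506 at DR4 and 3298 at DR6, against 936 at PS and 2833 at SOL. The pancreatic carboxypeptidase Cpa1, for example, was at 6.67 at DR1, 4.52 at DR4 and 7.63 at DR6, against 5.16 at PS and 7.14 at SOL. Of 20 gut, stomach and lung markers 2 were ordered higher and none lower, with a median of 0.79 (0.25 under normexp). Against PS, 13 were called higher at DR1, 3 at DR4 and 9 at DR6, and 5 lower at DR4. Against SOL, 6, 1 and 10 were called higher, and 2, 6 and 0 lower. In single pairs 3.53% to 5.43% of all genes were called higher and 2.28% to 5.1% lower. Of 14 islet and neuroendocrine markers 1 was ordered higher, with a median of 0.65 (0.12 under normexp). Called higher were 6, 2 and 8 at DR1, DR4 and DR6 against PS and 4, 2 and 7 against SOL. Called lower were 1, 2 and 1 against PS and 1, 5 and 0 against SOL. No kidney or adrenal marker of 9 was ordered, with a median of −0.57 (−0.14 under normexp). Called lower were 3, 7 and 6 against PS and 0, 2 and 1 against SOL. Higher than SOL were 2 at DR1 and 1 at DR6. Of 11 cholangiocyte markers 5 were ordered higher and 1 lower, with a median of 0.18 (0.04 under normexp), among them Krt19 at a change of 0.56 and Cftr at 1.04. Of 20 stellate cell and collagen markers 6 were ordered higher and 1 lower, with a median of −0.01 (−0.08 under median scaling). Col1a1 was at −0.49 at DR1, −0.80 at DR4 and −0.58 at DR6, against −1.69 at PS and −1.67 at SOL, and the matrix proteoglycan gene Lum changed by 1.31. Neither separated, with a smallest difference of 0.86 in both.

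At the 2-fold limit the genes with a symbol just inside were Rsn, Snf1lk and Zfp652, with smallest differences of 1.01, 1.01 and −1.01. Those just outside were Ddit4, Tex12 and Axud1, at 1.00, 0.99 and 0.98. When normexp was used for the background and arrays were quantile-scaled, 22 of the 66 higher genes and 1 of the 12 lower ones still separated, and no other gene did so. The share of separating genes that were higher was 84.6%, and 95.7% under normexp with quantile scaling.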

How the data were processed

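Each deposited array file holds 1 one-colour scan. Per the file headers and the submitters' processing notes, Agilent Feature Extraction 9.5.3.1 gave the authors' processed intensity, which is background-subtracted and detrended within the array but not scaled between arrays. The authors' deposited value table repeats that intensity, rounded, with differences of at most 0.497%. RNA came from single livers and was then pooled, and every array had its own cDNA synthesis, per the labels' protocols. No sample was left out of the 19.

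Of 45018 spots, 1639 controls were left out. Outlier spots were set missing, spots of a probe were averaged, and log2 of the processed intensity minus the array's 75th percentile (99.5 to 285.2) was computed from the deposited intensity. Probes flagged well above background on 3 or more arrays of some pool were kept, which left 23458 probes. A gene's brightest probe stood for it, giving 16346 genes. Gene names and mm8 positions are those of the array design; 5.84% of gene spots carry another name in the DR1 files, so names come from the other files.

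Tests used limma 3.58.1 (lmFit and eBayes) in R 4.3.3, on arrays and on the 5 pool means, with Benjamini-Hochberg adjustment over all genes. Both fits were tested on simulated data. Genes were named by a rule: up to 15 separating genes in each direction with the largest smallest difference, among genes that have a symbol and that no array of the brighter pools flagged as dim, every separating member of a list (or up to 2 with the widest gap between pools), and the 3 genes on either side of the 2-fold limit. The members and the 46 lists were chosen with earlier results of these data known. Many other list members in the text, such as Atf3, Egr1, Ahr, Hbb-b1 and Irf7, fall outside the rule and were mentioned with their values known. Counts of named genes in the closing sections cover the rule's genes alone. Alternatives changed the scaling, background, filter, probe summary, outlier spots, source table, replicate block, slide block, moderation, fold limit, single arrays and single pools. Python 3.11.15 was used for tables and figures.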

Additional observations from a re-analysis of the deposited data

Results flagged for a closer look

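Within each pool of 4 arrays, an array was singled out when its gap to the nearest of the others took up more of the pool's range than Dixon's 95% critical value allows. This held in 25 of 368 groups tested over 93 named genes (6.79%), and chance alone gives about 1 in 20. Values are log2 signals relative to the 75th percentile, and no explanation was tested.

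Among separating genes that were higher in the stream, the array apart was DR4 replicate 2 for Elovl3 (4.66, others 4.74 to 4.76), DR4 replicate 1 for Snf1lk (2.05), DR4 replicate 4 for Got1 (7.79) and DR1 replicate 3 for Areg (−3.1). It was PS replicate 4 for Sesn1 (2.74) and SOL replicate 4 for Dusp1 (1.66). Nfil3 at SOL replicate 1 was −0.14 while the other SOL arrays lay between 2.64 and 2.78, and its call depends on that array.

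Among lower genes, Lars2 at DR1 replicate 2 was 7.50, with the others between 5.47 and 5.74. The same array was apart for Hba-a1 (6.88) and Tomm40l (−0.16), and SOL replicate 4 for Rims3 (−3.03).

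Among genes that did not separate, DR1 replicate 2 was apart for Hsp90ab1 (5.94), Col1a1 (−0.13) and Axud1 (1.09, others 1.86 to 1.88). SOL replicate 1 was apart for Fgf21 (0.72, others 2.86 to 3.1), Ccnb2 (−2.55) and Aldh1a3 (−0.49), and SOL replicate 4 for Ndufa10 (3.60). At DR4, replicate 4 was apart for Gsta3 (6.61) and Adipoq (−4.50), and replicate 2 for Cftr (−2.0). At PS, replicate 4 was apart for Cyp7b1 (5.80) and Slc30a1 (2.2), and replicate 3 for Clec4f (2.30) and Tex12 (−2.38).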

How the results depend on the processing

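None of the counts and named-gene differences recomputed changed sign. Among list medians, those of CAR and PXR targets (0.02), acute phase proteins (0.03) and hepatocyte markers (0.05) turned positive under quantile scaling, and those of the taurine list and of B and plasma cell markers turned negative under median scaling (−0.06 in both). Separating genes numbered 22 higher and 1 lower under normexp with quantile scaling, 549 and 568 with no 2-fold limit, and 7 and 0 with a 4-fold limit. Of 34 named separating genes, 17 lost the call under normexp, 5 under median scaling, 3 under quantile scaling and 4 with the mean of all probes; the cause was not tested. In the pool fit, genes called higher numbered 3 under median scaling, 4 without a filter, 4 with pool medians and 8 with an intensity trend. Treating the slide as a random block over the arrays (correlation 0.664) called 208 higher and 87 lower. Each slide holds 1 pool, so that fit counts technical repeats of a pool as partly independent values. Its calls are therefore not on the footing of the pool fit.

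Leaving out 1 array gave 62 to 68 separating genes higher and 10 to 13 lower, 0 to 1 called higher and 0 called lower in the pool fit, and 2174 to 2474 ordered higher and 2437 to 2576 lower. Leaving out 1 pool requires fewer pairs to hold, and gave 81 to 209 separating genes higher and 16 to 94 lower, 0 called higher and 0 to 1 lower in the pool fit, and 2998 to 4193 ordered higher and 2956 to 4387 lower.

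Deviations of arrays that share a replicate number correlated at −0.162 to 0.483, over 0.1 in 16 of 36 pairs and not in all, so the numbers were not taken to pair the arrays. With the number as a replicate block, 67 genes separated higher and 11 lower, and Tomm40l, at −0.98, was the named gene that lost its call. With 1 pool per site, spread between mice was not measured, and dim genes are limited by signal over background.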
